A study of Mus musculus with 8 samples.

Results

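Egr1, Egr2, Egr3, Nr4a1, Nr4a2, Nr4a3, Fos, Fosb, Jun and Junb are the 10 immediate early transcription factors described here, out of 52636 genes in the count table. They were taken by symbol, matched to Ensembl identifiers through the GENCODE M21 annotation, and all 10 were found. The table holds messenger RNA counts of immune cells from secondary lymphoid organs (spleen and lymph nodes) of mice without signs of disease, aged 35 to 55 days. The 4 groups were TCR1640 males, TCR1640 females, SJL/J males and SJL/J females, with 2 libraries each. TCR1640 mice are SJL/J mice with a transgene for a T cell receptor that recognizes myelin, and SJL/J mice are the strain without it. All groups shared the same culture of 4 days with anti-CD3 (1 µg/ml), IL-23 and IL-6 (20 ng/ml each), TGF-β (4 ng/ml) and IL-12 (3 ng/ml), which the labels call TH1/TH17 stimulation. No group was left unstimulated, so the values are levels at the end of that culture and not an induction. The cells were bulk lymphoid cells, and fewer cells of a type and less RNA per cell cannot be told apart.

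Immediate early genes are transcribed within minutes of a stimulus, from factors already present in the cell, before any new protein is made. In T cells the antigen receptor reaches them through the ERK, JNK and calcium pathways, which act on serum response factor with its ternary complex partners, on CREB and ATF factors and on MEF2. Fos and Jun proteins are basic leucine zipper proteins that pair to form the factor AP-1, EGR proteins are zinc finger factors, and NR4A proteins are orphan nuclear receptors whose activity follows their amount.

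Group totals ran from 7678860 to 10005975 counts. Libraries of the same group were nearly as alike as counting noise allows, with a chi-square per degree of freedom of 1.05 to 1.08 against 3.12 to 17.1 between libraries of different groups. They were therefore summed and counted as 1 sample, so n = 1 per group, and intervals on ratios of 2 groups are exact 95% intervals for counting error only, with no p-value. Sex labels matched sex-linked genes, with Ddx3y at 64 to 96 counts in male libraries and 0 to 1 in female ones. T cell receptor segment use, in contrast, was narrow in the libraries labelled SJL/J, the strain without the transgene. The joining segment Traj43 took 2.91% of its class in males labelled TCR1640 (exact 95% binomial interval 0.9505 to 6.65) and 5.04% in females (1.87 to 10.7), against 79.2% in males labelled SJL/J (75.05 to 82.95) and 75.6% in females (71.3 to 79.4). Strain names are therefore the labels of libraries, and each strain direction rests on labels that these segments put in doubt. The strand on which reads were counted is also in doubt. It was examined in 901 pairs of a coding gene and a noncoding feature on the other strand, with at least 100 shared bases and 200 counts. The feature out-counted its gene in 77.6% of these pairs (exact 95% interval 74.7 to 80.3, taking pairs as independent). Had the strand setting been reversed, the counts of a gene without such a partner would come from reads of its opposite strand. Of the 10 factors, 8 share no exon sequence with a feature on the other strand, and the 2 that do, Jun and Junb, are given with their partners.

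The JUN pair made up most of the signal. Levels are given as CPM, counts per 1000000 counts of the library after TMM adjustment of library sizes (a trimmed mean of log ratios), and different genes are compared per kilobase of exon. Over the 4 groups the mean level was 204 CPM per kilobase for Junb and 51.0 for Jun, then 11.6 for Fos, 9.19 for Egr1 and 4.25 for Nr4a1. Fosb at 1.48 and Nr4a3 at 1.41 CPM per kilobase lay close together, and Egr2 at 0.883, Egr3 at 0.707 and Nr4a2 at 0.313 were the lowest. Jun and Junb together held 86.2%, 85.0%, 86.8% and 83.3% of the summed CPM of the 10 genes in TCR1640 males, TCR1640 females, SJL/J males and SJL/J females. That sum was 854 and 803 CPM in males and females labelled TCR1640, against 659 and 647 CPM in males and females labelled SJL/J. The plot of levels by library shows that the libraries of a group lay close together for the well-counted genes and scattered for the genes with few counts. Of the 40 pairs of libraries within a group, 10 genes in 4 groups, 4 had a ratio whose interval excluded equality.

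**Figure D1:**
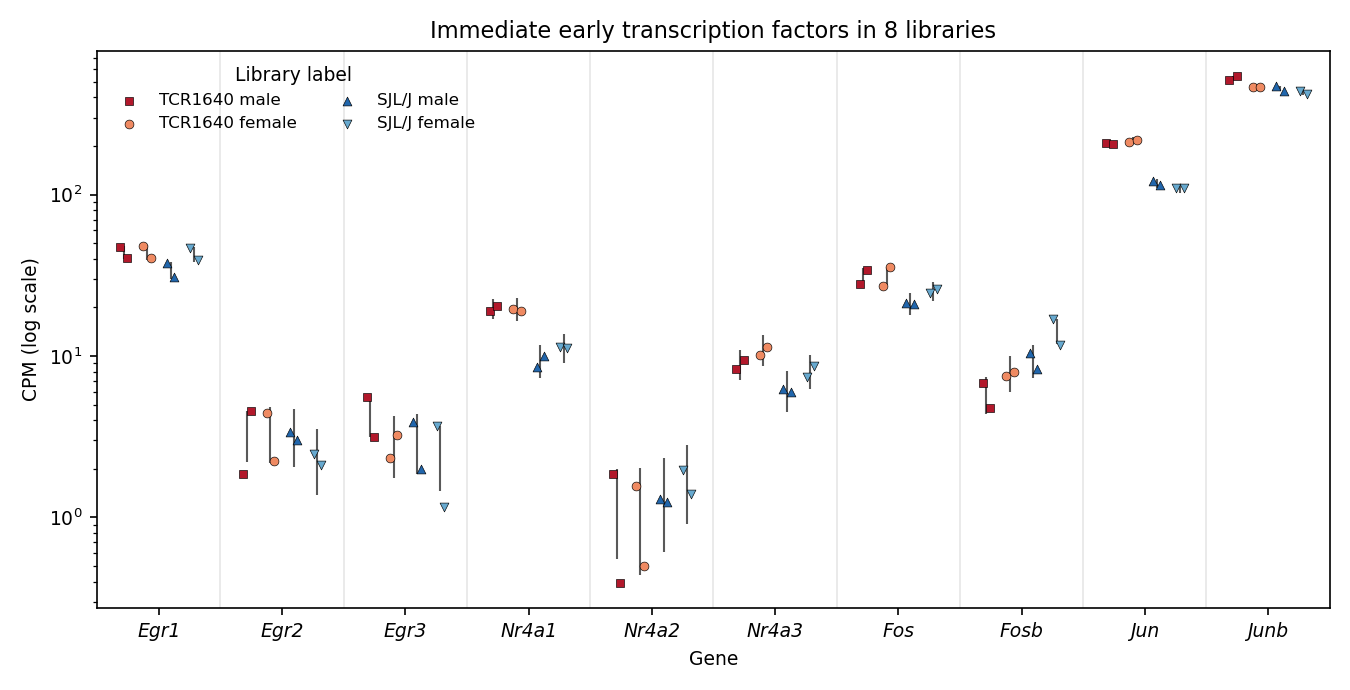
CPM of the 10 factors on a log axis, with 1 point for each library in 4 labelled groups; vertical lines are exact 95% Poisson intervals of the group's summed count and cover counting error only. Jun, Nr4a1 and Fos stand higher, and Fosb lower, in every library labelled TCR1640 than in any library labelled SJL/J.

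The libraries labelled TCR1640 held more Jun, Nr4a1 and Fos and less Fosb than those labelled SJL/J, in both sexes. In the additive test over the 4 summed samples, 3 of the 10 factors rose (Jun, Nr4a1, Fos), 1 fell (Fosb) and 6 did not pass. The share of all 17261 genes passing was 26.5%, with 13.4% higher and 13.1% lower, so the count of factors passing is near the background. The median log2 change of the 10 was 0.34, beside 0.01 for all genes tested. The test was edgeR's quasi-likelihood F test with strain label and sex as terms, two-sided, with p-values adjusted by Benjamini-Hochberg over all genes. It has 1 residual degree of freedom, the part of a sex difference that differs between strain labels, so its SE and p do not measure spread between mice.

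Jun (ENSMUSG00000052684, chromosome 4, 95049034 to 95052222, minus strand, a single exon) encodes c-Jun, the AP-1 subunit that JNK phosphorylates. It measured 209 and 205 CPM in the TCR1640 male libraries and 213 and 218 CPM in the TCR1640 female libraries, against 121 and 115 CPM in the SJL/J male libraries and 110 and 109 CPM in the SJL/J female libraries. No library labelled SJL/J reached a library labelled TCR1640, and the sexes lay together within each label. The log2 ratio, TCR1640 over SJL/J, was 0.82 (0.71 to 0.94) in males and 0.98 (0.86 to 1.10) in females. In the additive test Jun rose by 0.90 ± 0.12 (log2, SE; edgeR adjusted p = 1.81e-11). The antisense gene Junos overlaps 232 bases of Jun and had 2831 and 2999 counts in TCR1640 males and 2521 and 2589 in TCR1640 females, against 1005 and 1096 in SJL/J males and 1386 and 1426 in SJL/J females. These counts were 2.28 to 3.06 times those of Jun. Junos also rose, by 1.05 ± 0.12 (log2, SE; edgeR adjusted p = 1.10e-17), and without the strand setting the reads of Jun and Junos cannot be told apart. With both features summed, the additive log2 change was 1.01.

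Nr4a1 (ENSMUSG00000023034, chromosome 15, 101254269 to 101274795, plus strand) encodes Nur77, a nuclear receptor much used as a reporter of antigen receptor signal strength. It measured 18.98 and 20.3 CPM in TCR1640 males and 19.5 and 19.1 CPM in TCR1640 females, against 8.60 and 10.0 CPM in SJL/J males and 11.3 and 11.2 CPM in SJL/J females. The labels did not overlap, and all 4 TCR1640 libraries lay close together. Its log2 ratio was 1.08 (0.69 to 1.49) in males and 0.79 (0.41 to 1.17) in females, and it rose by 0.93 ± 0.19 in the additive test (log2, SE; edgeR adjusted p = 1.32e-05). With DESeq2 in place of edgeR the adjusted p was 0.0946.

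Fos (ENSMUSG00000021250, chromosome 12, 85473890 to 85477273, plus strand) encodes c-Fos, which binds DNA only as a partner of a JUN protein. It measured 28.1 and 34.1 CPM in TCR1640 males and 27.1 and 35.5 CPM in TCR1640 females, against 21.4 and 21.02 CPM in SJL/J males and 24.5 and 25.9 CPM in SJL/J females. The labels did not overlap, but the gap between the lowest TCR1640 and the highest SJL/J library was small beside the spread of the TCR1640 libraries. The log2 ratio was 0.56 (0.29 to 0.84) in males and 0.32 (0.05 to 0.59) in females, and Fos rose by 0.44 ± 0.16 in the additive test (log2, SE; edgeR adjusted p = 0.0224). This call depended on single libraries and on the tool. With DESeq2 the adjusted p was 0.505. The edgeR adjusted p was 0.127 without the second TCR1640 female library, 0.119 without the second TCR1640 male library and 0.0612 without the second SJL/J male library. Without the second TCR1640 female library the log2 ratio in females was 0.06.

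Fosb (ENSMUSG00000003545, chromosome 7, 19302696 to 19310051, minus strand) encodes FosB, another JUN partner, and was the member that fell. It measured 6.81 and 4.73 CPM in TCR1640 males and 7.56 and 7.94 CPM in TCR1640 females, against 10.4 and 8.26 CPM in SJL/J males and 16.9 and 11.7 CPM in SJL/J females. Both TCR1640 groups lay below both SJL/J groups, and the SJL/J female libraries were the highest. The log2 ratio was -0.69 (-1.22 to -0.17) in males and -0.87 (-1.34 to -0.41) in females, and Fosb fell by 0.78 on the log2 scale (SE 0.23; edgeR adjusted p = 0.00422). With DESeq2 the adjusted p was 0.391.

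The proximal promoters of the 4 factors that passed are shown because 3 of these genes rose and 1 fell between the labels. They are the windows upstream of the RefSeq start site on GRCm38.p6, 5′ to 3′ on the gene's own strand, with motif matches in capitals, and the Nr4a1 window belongs to a start inside the annotated gene. Jun is at chr4:95052223-95052472, Nr4a1 at chr15:101266596-101266845, Fos at chr12:85473640-85473889 and Fosb at chr7:19310052-19310295. Fos and Nr4a1 are on the plus strand and Jun and Fosb on the minus strand. The Fosb sequence is 244 bases, from -250 to -7, since bases in an annotated exon of the gene were left out.
Jun: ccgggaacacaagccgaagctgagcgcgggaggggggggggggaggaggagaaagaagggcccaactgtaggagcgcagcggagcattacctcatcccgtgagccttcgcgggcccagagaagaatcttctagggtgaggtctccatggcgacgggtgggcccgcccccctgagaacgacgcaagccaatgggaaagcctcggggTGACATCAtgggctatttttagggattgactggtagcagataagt
Nr4a1: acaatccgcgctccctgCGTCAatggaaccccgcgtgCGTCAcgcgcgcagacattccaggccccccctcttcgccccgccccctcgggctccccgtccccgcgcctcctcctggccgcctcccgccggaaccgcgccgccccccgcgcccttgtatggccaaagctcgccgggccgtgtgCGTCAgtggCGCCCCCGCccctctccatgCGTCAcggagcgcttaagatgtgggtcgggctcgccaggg
Fos: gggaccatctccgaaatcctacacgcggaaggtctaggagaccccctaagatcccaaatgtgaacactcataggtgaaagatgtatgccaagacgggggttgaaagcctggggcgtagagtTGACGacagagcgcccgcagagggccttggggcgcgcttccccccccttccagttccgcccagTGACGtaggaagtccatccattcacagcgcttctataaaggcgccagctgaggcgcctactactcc
Fosb: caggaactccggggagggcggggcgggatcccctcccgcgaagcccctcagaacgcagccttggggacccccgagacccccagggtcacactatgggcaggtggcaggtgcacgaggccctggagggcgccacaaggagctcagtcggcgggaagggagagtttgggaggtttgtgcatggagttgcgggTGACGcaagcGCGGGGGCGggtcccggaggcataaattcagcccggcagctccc
Capitals mark TGACG, the core of the site for CREB and ATF factors, TGANNTCA, the site shape of Jun dimers with ATF partners, and GCGNGGGCG, the site of EGR factors, each searched on both strands. A match reads CGTCA or CGCCCCCGC where it lies on the other strand. TGACG was found in the windows of Fos at -129 and -66, Fosb at -60 and Nr4a1 at -233, -213, -69 and -40, counted from the start site, and not in that of Jun. It was present in 17.8% of 32841 windows in the RefSeq table, and in at least 1 window of 5347 of 27018 genes. Among the 8 factors searched, which did not include Egr1 and Egr3, 7 had it in at least 1 window. TGANNTCA matched at -45 in Jun, 1 of the 8 factors, against 11.9% of all windows and 3652 of the 27018 genes. GCGNGGGCG matched at -50 in Fosb and at -60 in Nr4a1, and in 3 of the 8 factors with Nr4a2. It was present in 4.70% of all windows and for 1440 of the 27018 genes. The CArG box, the site of serum response factor, was found only for Egr2 among the 8 searched. It was present in 1.47% of all windows and for 439 of the 27018 genes. These are matches of letters in a 250-base window and not evidence of binding. Bases further upstream were not searched, so a motif absent from a window may lie outside it.

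The other 6 factors did not pass the test of the strain label. Egr1 (ENSMUSG00000038418, chromosome 18, 34859823 to 34864984), a target of ternary complex factors downstream of ERK, measured 47.7 and 40.4 CPM in TCR1640 males and 47.7 and 40.2 CPM in TCR1640 females, against 37.5 and 31.0 CPM in SJL/J males and 46.4 and 39.2 CPM in SJL/J females. The SJL/J male group stood below the other 3, which did not differ beyond counting error. Its log2 ratio was 0.37 (0.15 to 0.59) in males and 0.05 (-0.17 to 0.26) in females, and the additive change was 0.21 ± 0.14 (log2, SE; edgeR adjusted p = 0.315). Nr4a3 (ENSMUSG00000028341, chromosome 4, 48045153 to 48086447), the receptor NOR1, measured 8.25 and 9.47 CPM in TCR1640 males and 10.2 and 11.4 CPM in TCR1640 females, against 6.25 and 6.00 CPM in SJL/J males and 7.36 and 8.63 CPM in SJL/J females. The TCR1640 libraries were mostly higher, with an overlap between TCR1640 males and SJL/J females. Its log2 ratio of 0.54 (0.02 to 1.08) in males and 0.44 (-0.04 to 0.92) in females gave an additive change of 0.49 ± 0.24 (log2, SE; edgeR adjusted p = 0.12).

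Junb (ENSMUSG00000052837, chromosome 8, 84974484 to 84978718), the AP-1 subunit that TH17 cells need together with BATF, was the most abundant factor and varied least. It measured 513 and 541 CPM in TCR1640 males and 467 and 462 CPM in TCR1640 females, against 473 and 441 CPM in SJL/J males and 440 and 419 CPM in SJL/J females. Only the TCR1640 male libraries stood clear of all others. The log2 ratio was 0.22 (0.15 to 0.28) in males and 0.12 (0.05 to 0.19) in females, with an additive change of 0.17 ± 0.11 (log2, SE; edgeR adjusted p = 0.301). Its partner on the other strand, the peroxiredoxin gene Prdx2, shares 173 bases with it and had 105 to 182 counts per library. Without the strand setting the reads of Junb and Prdx2 over these bases cannot be told apart. The low count of Prdx2 therefore does not bound its part in the count of Junb.

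Egr2, Egr3 and Nr4a2 had the fewest counts of the 10 factors. Egr2 (ENSMUSG00000037868, chromosome 10, 67535475 to 67542188) and Egr3 (ENSMUSG00000033730, chromosome 14, 70077203 to 70082614) restrain T cell responses and are linked to anergy, the unresponsive state that follows receptor signal without costimulation. Egr2 had 9 and 23 counts in TCR1640 males and 17 and 9 in TCR1640 females, against 13 and 12 in SJL/J males and 10 and 9 in SJL/J females. Egr3 had 27 and 16 counts in TCR1640 males and 9 and 13 in TCR1640 females, against 15 and 8 in SJL/J males and 15 and 5 in SJL/J females. Nr4a2 (ENSMUSG00000026826, chromosome 2, 57106830 to 57124003), the receptor NURR1, had 9 and 2 counts in TCR1640 males and 6 and 2 in TCR1640 females, against 5 and 5 in SJL/J males and 8 and 6 in SJL/J females. For all 3 the groups overlapped library by library, and their edgeR adjusted p in the additive test was 0.672, 0.46 and 0.619. A difference of the size seen for Jun was within the interval of each of them in at least 1 sex.

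**Figure D2:**
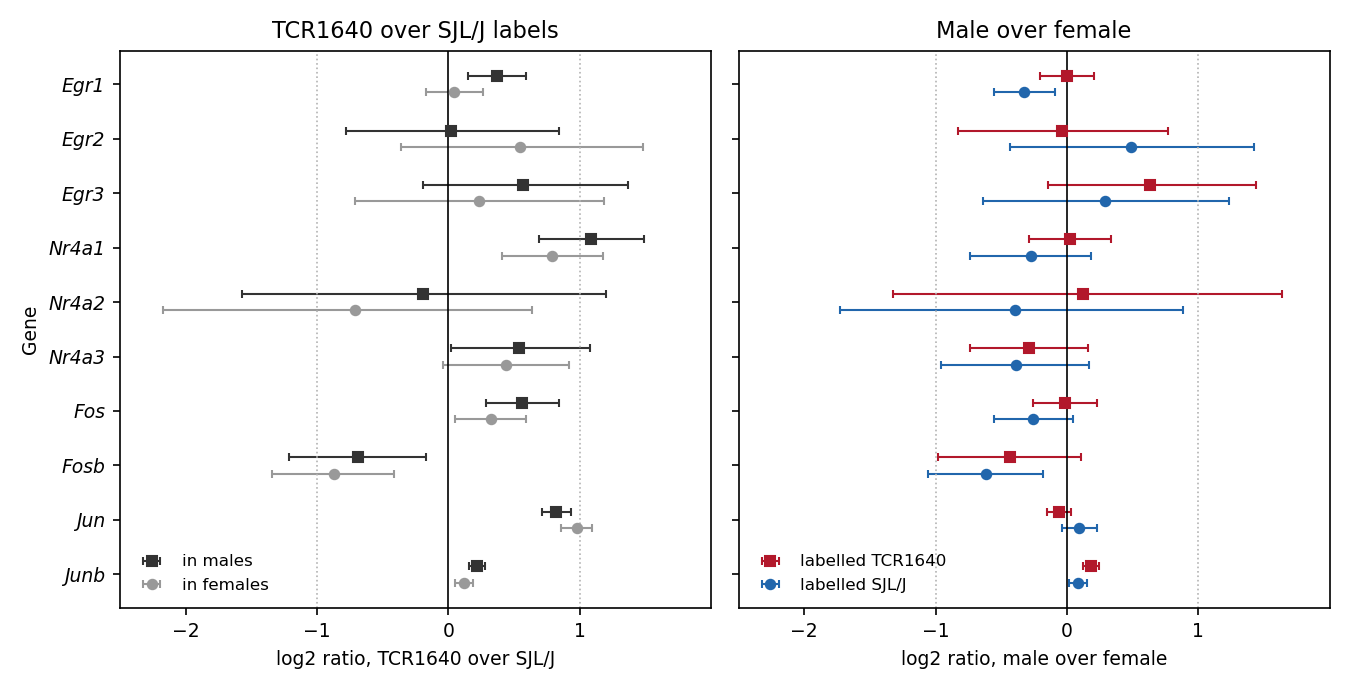
Log2 ratios of summed counts for the 10 factors, TCR1640 over SJL/J labels in each sex on the left and male over female in each label on the right; bars are exact 95% counting intervals and dotted lines mark a 2-fold difference. On the left each of the 10 factors lies on the same side of 0 in both sexes, and the intervals of Jun, Junb, Nr4a1, Fos and Fosb exclude 0 in both, whereas on the right most intervals cross 0.

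A gene was counted as apart between 2 groups when it had at least 100 counts in them, differed at least 2-fold, and had an interval excluding equality. Between labels in males, 1 of the 7 factors with enough counts, Nr4a1, was apart and higher, beside 7.91% of 11792 genes apart in either direction and 4.32% higher. Between labels in females none of 7 was apart, beside 5.79% of 11440 genes. Jun lay at the edge of that rule in females, since its log2 ratio was 1.01 without the first SJL/J female library and 1.00 without the second. Without the second SJL/J female library Fosb was apart as well, with a log2 ratio of -1.09. Intervals excluded equality at any size for 6 factors above and 1 below in males and for 4 above and 1 below in females, where 55.3% and 49.6% of all genes with enough counts did so in males and females.

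Ratios between family members within 1 library do not depend on library size. Jun over Junb was 0.392 and 0.464 in males and females labelled TCR1640, against 0.257 and 0.256 in males and females labelled SJL/J. The log2 difference of this ratio was 0.61 (0.48 to 0.74) in males and 0.86 (0.73 to 0.99) in females. Fos over Fosb was 5.42 and 4.05 in males and females labelled TCR1640, against 2.27 and 1.77 in males and females labelled SJL/J, with log2 differences of 1.25 (0.68 to 1.82) in males and 1.19 (0.67 to 1.71) in females. Thus Jun differed more than Junb, and Fos and Fosb differed unequally, between the labels. Nr4a1 over Nr4a3 was 2.22 and 1.79 in males and females labelled TCR1640, against 1.52 and 1.40 in males and females labelled SJL/J, and its log2 differences of 0.54 (-0.10 to 1.18) and 0.35 (-0.24 to 0.94) in males and females did not exclude equality.

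**Figure D3:**
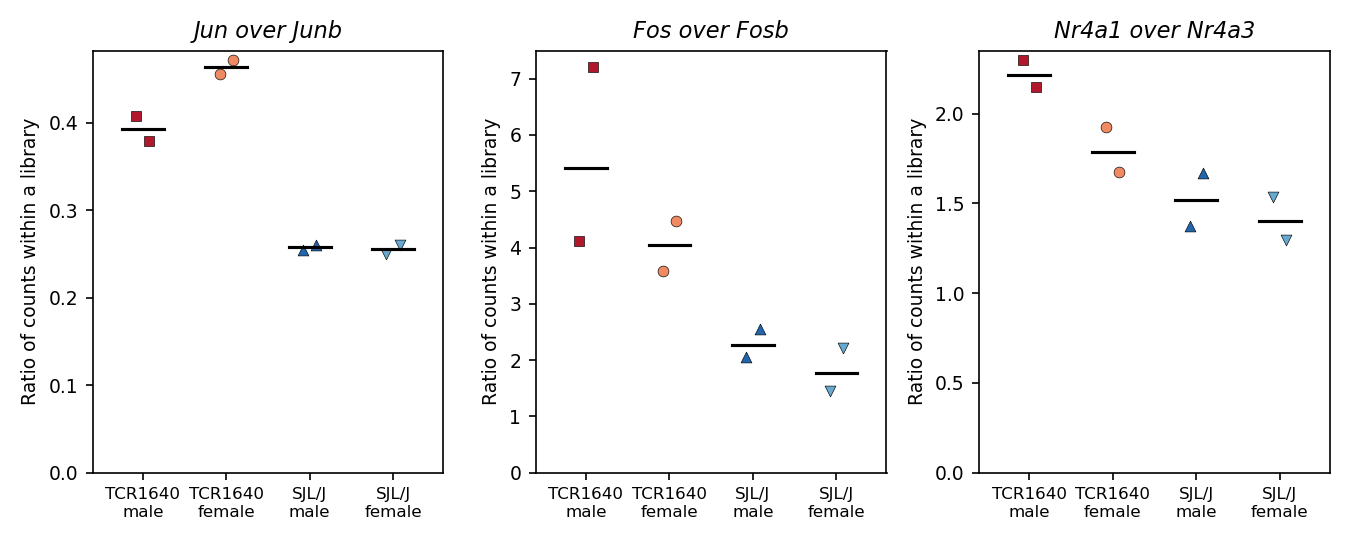
Ratios of counts between family members within each library (points) and within each group's summed counts (bars), for Jun over Junb, Fos over Fosb and Nr4a1 over Nr4a3. Every TCR1640 library lies above every SJL/J library for Jun over Junb and Fos over Fosb, and the 2 TCR1640 male libraries differ widely for Fos over Fosb.

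No factor passed the additive test of sex at the adjusted threshold or was apart between the sexes, and few of all genes were. Intervals for counting error, given below, excluded equality for Junb, Fosb and Egr1 in at least 1 label. In the additive test of sex none of the 10 passed, beside 1.1% of all 17261 genes, and the median log2 change, male over female, was -0.13, beside 0.00 for all genes. At an unadjusted p threshold of 0.05 edgeR called 1 of the 10, Fosb, at -0.54 ± 0.23 (log2, SE; unadjusted p = 0.0181, adjusted p = 0.367). DESeq2 and limma-voom on the same samples also called none. By the rule for apart, none of 7 factors qualified between the sexes in TCR1640, beside 0.712% of genes, and none of 7 in SJL/J, beside 0.481%.

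The intervals show which sex differences exceeded counting error. Junb was higher in males in both labels, with a log2 ratio, male over female, of 0.18 (0.12 to 0.24) in TCR1640 and 0.08 (0.02 to 0.15) in SJL/J. Fosb was lower in SJL/J males than in SJL/J females, at -0.62 (-1.06 to -0.18), and its ratio in TCR1640 was -0.44 (-0.98 to 0.11). Egr1 was lower in SJL/J males than in SJL/J females, at -0.32 (-0.56 to -0.09), and in TCR1640 its ratio was -0.00 (-0.21 to 0.21). Jun was at -0.06 (-0.15 to 0.03) in TCR1640 and 0.09 (-0.04 to 0.23) in SJL/J. In these samples its sex ratios were smaller than its ratios between labels by more than counting error. Spread between mice is not part of these intervals. Among all genes with enough counts, 33.5% in TCR1640 and 27.9% in SJL/J had an interval excluding equality, against 1 of 7 and 3 of 7 factors. Jun over Junb was lower in TCR1640 males than in TCR1640 females by a log2 difference of -0.24 (-0.35 to -0.13), against 0.01 (-0.14 to 0.16) in SJL/J. Markers of other cells moved with sex too. In the additive test, which pools the labels, 3 of 7 neutrophil, 2 of 6 platelet and 1 of 5 erythroid markers tested rose in males. They were S100a8, S100a9, Elane, Pf4, Ppbp and Hba-a1. The rise lay mainly in SJL/J, since S100a8, Elane and Ppbp were at 0 in TCR1640 males and females. For S100a9 the log2 ratio, male over female, was 1.43 (1.19 to 1.66) in SJL/J and -1.08 (-3.76 to 1.29) in TCR1640. For Hba-a1 it was 1.81 (1.27 to 2.39) and -0.04 (-0.51 to 0.44), and for Pf4 0.73 (0.56 to 0.91) and 0.47 (-1.51 to 2.69). Summed neutrophil markers were at 148 to 154 CPM in SJL/J males, against 56.4 to 59.2 CPM in SJL/J females, and at 1.86 to 2.76 CPM in TCR1640 males, against 5.71 to 5.73 CPM in TCR1640 females. Their part in the sex differences of Fosb, Egr1 and Junb was not tested.

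Whether the sex ratio differed between the labels was read from the difference of the 2 log2 ratios, TCR1640 minus SJL/J. None of 9 factors with enough counts was apart, beside 3.48% of all genes. The interval excluded equality for Egr1 at 0.32 (0.02 to 0.63) and for Junb at 0.10 (0.01 to 0.19), where 25.1% of all genes did so. When the 8 libraries were taken as samples, edgeR gave none of 9 factors an adjusted p under the threshold, with 1 at an unadjusted p under 0.05 and a lowest adjusted p of 0.196, and DESeq2 gave none of the 4 it tested. In the other comparisons the same 8-library fit, which treats libraries alike to counting noise as independent samples, called 6 factors between labels in males and 4 in females, beside 42.8% and 36% of all genes. It called 1 factor between the sexes in each label, beside 16.2% of genes in TCR1640 and 11.3% in SJL/J. Over both sexes it called 7 factors for the strain label, beside 49.5% of genes, and over both labels 2 for sex, beside 17.5%. For the difference of the sex ratio the share of all genes called was 10.2%.

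Lists of related genes place the factors in their pathway, each read from the additive test of the strain label and beside the 26.5% of all genes that passed. Genes named here other than the largest and smallest of a list were chosen after their values were seen. Of the 11 other AP-1 genes, 2 rose, 1 fell and 8 did not pass, with a median log2 change of -0.12. Jund, the third JUN gene, had 415 and 342 CPM in males and females labelled TCR1640, against 275 and 245 CPM in males and females labelled SJL/J, and rose by 0.54 ± 0.12 (log2, SE), with Gm11175 on its other strand. Batf3, which drives dendritic cell development, rose by 0.56. Batf, the partner of JUN proteins that TH17 differentiation requires, fell to 67.9 and 68.4 CPM in males and females labelled TCR1640, against 127 and 118 CPM in males and females labelled SJL/J, a log2 change of -0.85 ± 0.13 (SE; edgeR adjusted p = 2.96e-09). Neither of the EGR corepressors Nab1 and Nab2 passed, and Egr4 had 2 counts in all. Gm16229, Nemp1 and Stat6 lie on the other strand of Nab2.

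Of 24 other immediate early genes tested, 12 rose, 1 fell and 11 did not pass, with a median of 0.45. Klf2, a factor of quiescent and recirculating T cells, had 66.8 and 63.2 CPM in males and females labelled TCR1640, against 15.5 and 14.0 CPM in males and females labelled SJL/J, and rose by 2.14 ± 0.16 (log2, SE; edgeR adjusted p = 7.40e-40). Zfp36, which destabilizes cytokine messenger RNA, rose by 1.28, with Gm44710 on its other strand. The antiproliferative genes Btg1, Btg2 and Tob1 rose by 0.79, 0.91 and 0.96, and the immediate early genes Ier3, Ier5 and Ier5l by 0.55, 0.67 and 1.03. Klf2, Btg1, Btg2 and Tob1 are also known as genes of quiescent lymphocytes. Cebpd, with Spidr on its other strand, fell by 0.47, and Myc, at -0.11, did not pass. In the list's sex test none of 24 passed, with Trib1 at 0.83 (edgeR adjusted p = 0.0645).

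The upstream pathway did not move as one. Of 18 ERK and JNK pathway genes 16 did not pass, and the median was 0.09. Rasgrp1, which activates RAS after antigen receptor signalling, rose to 38.8 and 41.9 CPM in males and females labelled TCR1640, against 14.7 and 17.1 CPM in males and females labelled SJL/J, a log2 change of 1.34 ± 0.16 (SE; edgeR adjusted p = 4.38e-15), and Hras fell by 0.65. Of 14 serum response factor, ternary complex, CREB and MEF2 genes, 3 rose, 2 fell and 9 did not pass, with a median of 0.08. Mrtfa, an actin-regulated coactivator of serum response factor, rose by 0.88 (Sgsm3 lies on its other strand), Elk4 by 0.58 (Mfsd4a) and Creb1 by 0.46. Crem, the cAMP-responsive modulator, fell by 1.20 (Gm6225), and Mef2c fell to 1.31 and 1.28 CPM in males and females labelled TCR1640, against 7.63 and 7.29 CPM in males and females labelled SJL/J, a log2 change of -2.51 ± 0.37 (SE). Srf itself, at -0.14, did not pass. Of 11 MAP kinase phosphatase and feedback genes tested, 3 rose, 2 fell and 6 did not pass, with a median of 0.11. Dusp5 rose by 1.11 (AC137853.2 on the other strand), Dusp10 by 0.82 and Dusp1, a phosphatase of JNK and p38 that is itself an immediate early gene, by 0.75 (Ergic1). Dusp4 fell by 0.90 and Spry2, with 35 counts in all, fell by 1.83.

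NFAT and NF-κB response genes had 5 of 16 that rose, 1 that fell and 10 that did not pass, with a median of 0.17. Nfkbiz, an atypical IκB protein, rose by 1.22, Nfatc3 by 0.67 (Esrp2 on the other strand), Bcl3 by 0.51 (Gm16175), Nfatc1 by 0.48 and Rel by 0.48. Nfkb2, with AC114539.1 and Psd on its other strand, fell by 0.59. Of 14 early activation surface and cytokine genes tested, 1 rose, 5 fell and 8 did not pass, with a median of -0.36. Cd69, an early activation marker that also holds T cells in lymphoid tissue, rose to 34.3 and 48.4 CPM in males and females labelled TCR1640, against 19.5 and 21.8 CPM in males and females labelled SJL/J, a log2 change of 0.99 ± 0.16 (SE). Il2ra, the high-affinity IL-2 receptor chain of activated and regulatory T cells, fell to 332 and 326 CPM in males and females labelled TCR1640, against 688 and 646 CPM in males and females labelled SJL/J, a log2 change of -1.02 ± 0.12 (SE; edgeR adjusted p = 5.52e-17). Ccl3 fell by 1.09, Cd40lg by 1.17, Tnfrsf4 by 0.57 and Tnfrsf9 by 0.36. The chemokine gene Ccl4 was the member of all these lists that passed the sex test, with a log2 change, male over female, of 0.79 (edgeR adjusted p = 0.00381).

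Genes linked to the EGR and NR4A programmes were split as well. Of 8 anergy genes tested 6 rose, none fell and 2 did not pass, with a median of 0.57. They were Crtam at 2.22, the diacylglycerol kinase genes Dgka at 1.38 (Pmel on the other strand) and Dgkz at 0.53 (Gm9821), the inhibitory receptor gene Lag3 at 0.69, Sema7a at 0.48 and the ubiquitin ligase gene Cblb at 0.47. Egr2 and Egr3, the factors that give this list its name, did not pass. Rnf128, of the same list, had 29 counts in all and was not tested. Its log2 ratio was -3.14 (-8.63 to -0.18) in males and -0.61 (-2.08 to 0.77) in females, opposite to the genes that rose. Of 8 exhaustion genes 2 rose, 5 fell and 1 did not pass, with a median of -0.57. Cd38 rose by 1.92 and Tox2 by 0.59, whereas the inhibitory receptor genes Ctla4, Havcr2, Pdcd1 and Tigit fell by 0.89, 0.89, 0.75 and 0.70, and Entpd1 fell by 0.45. Thus Nr4a1 rose where 5 of these 8 genes fell.

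**Figure D4:**
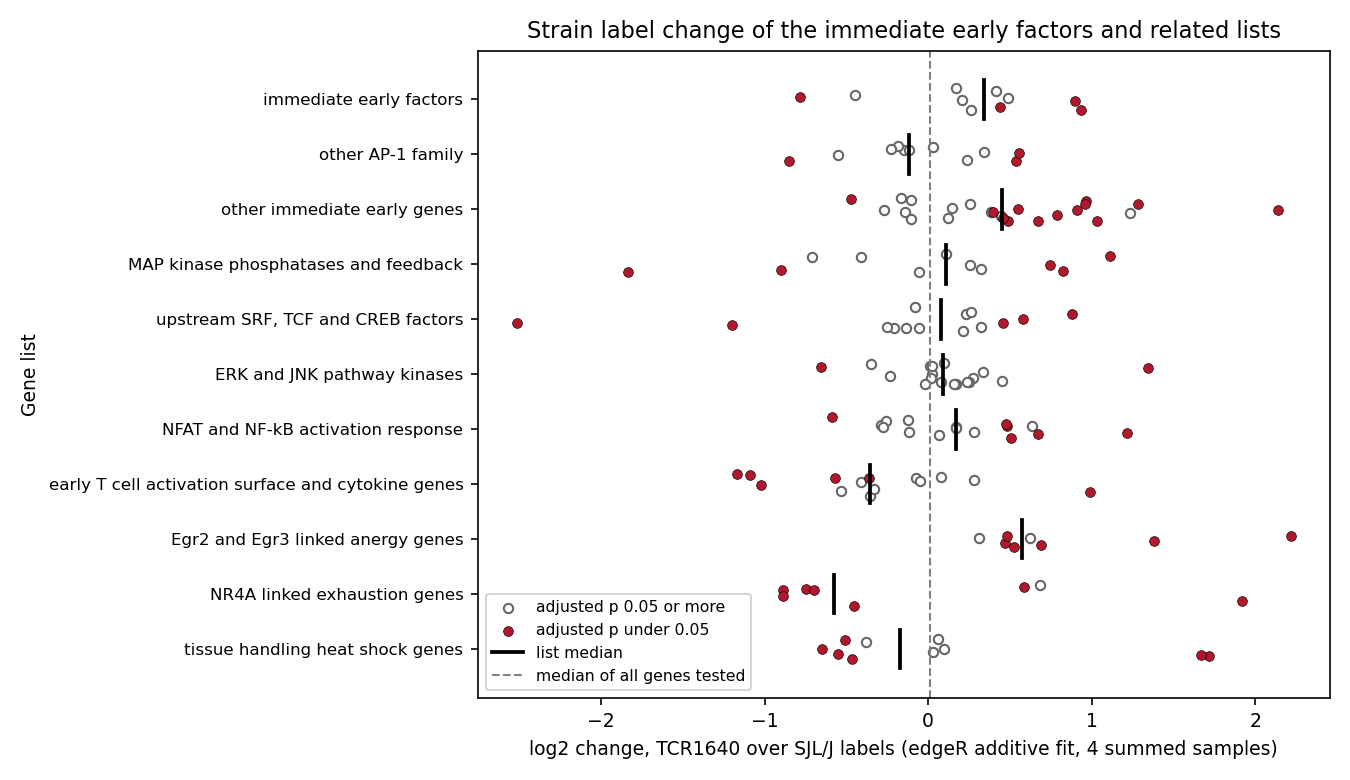
Additive log2 change between strain labels, TCR1640 over SJL/J, for each tested gene of the 10 factors and of 10 related lists; filled points passed the edgeR test at an adjusted p under 0.05, bars are list medians and the dashed line is the median of all genes. The tested anergy genes, without Rnf128, lie to the right of 0, and the activation and exhaustion lists mostly to the left.

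Other properties of the libraries moved with the strain label, and some with sex. Dissociation and handling of tissue can induce immediate early genes together with heat shock genes, and of 10 heat shock genes 2 rose, 4 fell and 4 did not pass, with a median of -0.17. The 2 that rose were the near-identical Hspa1a and Hspa1b, at 1.72 and 1.67, whose reads can be split between them and are uncertain. Gm20481 lies on the other strand of Hspa1a. Hsp90ab1 fell by 0.65, Hsp90aa1 by 0.55, Hspd1 by 0.51 (Hspe1 on the other strand) and Hsph1 by 0.47. Of 9 T cell markers 5 rose and 2 fell, and their summed level was 1286 to 1411 CPM in libraries labelled TCR1640, against 941 to 1047 CPM in libraries labelled SJL/J. Cd8a, a chain of the CD8 coreceptor of cytotoxic T cells, rose to 171 and 155 CPM in males and females labelled TCR1640, against 27.6 and 23.1 CPM in males and females labelled SJL/J. Its partner chain Cd8b1 rose by 2.39, whereas Cd4, the coreceptor of helper T cells, fell by 0.52 and Cd28 by 0.40. All 7 neutrophil markers fell, to sums of 1.86 to 5.73 CPM in libraries labelled TCR1640, against 56.4 to 154 CPM in libraries labelled SJL/J, and S100a8 and Elane were at 0 in both TCR1640 groups. Of 6 platelet markers 5 fell, with sums of 88.1 to 101 CPM in libraries labelled TCR1640, against 209 to 322 CPM in libraries labelled SJL/J, and Ppbp was at 0 in both TCR1640 groups. Most of the TCR1640 sum was Gp1ba, which did not pass, at 80.9 and 86.4 CPM in males and females labelled TCR1640, against 62.0 and 71.9 CPM in males and females labelled SJL/J. Pf4 fell to 0.707 and 0.510 CPM in males and females labelled TCR1640, against 86.7 and 52.1 CPM in males and females labelled SJL/J. Of 7 mast cell and basophil markers 6 fell and Kit rose, with sums of 51.6 to 58.0 CPM in libraries labelled TCR1640, against 85.8 to 106 CPM in libraries labelled SJL/J. Kit was most of the TCR1640 sum, at 51.7 and 48.5 CPM in males and females labelled TCR1640, against 17.4 and 15.3 CPM in males and females labelled SJL/J. Of 5 B cell markers tested 3 rose and 1 fell, with sums of 41.5 to 47.2 CPM in libraries labelled TCR1640, against 27.99 to 35.03 CPM in libraries labelled SJL/J. Monocyte markers (0 rose and 1 fell of 4 tested), erythroid markers (0 and 1 of 5) and stromal markers (0 and 0 of 3) had few members that passed. The part of cell composition, tissue handling and heat shock in the differences of the 10 factors was not tested.

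The genes whose 4 group levels followed a factor most closely were found by the root mean square difference of mean-centred log2 CPM over the 4 groups, among 11624 to 11625 genes with at least 200 counts. With 4 points, and the libraries shared by every gene, such likeness is a description. The closest to Jun were Slc28a2 (0.03), Dlg3 and Gramd1a, and the closest to Nr4a1 were Gm10552 (0.02), Scpep1os and Gm43069. The closest to Fos were Zcchc2 (0.01), Pde8b and Dcst1. Fosb had no near match, with Psd (0.07), Raph1 and Fancc the closest, and Psd lies on the other strand of Nfkb2. For Egr1 they were B230319C09Rik, Rnf214 and Cpeb4, for Nr4a3 Herc3, Nlk and A930037H05Rik, and for Junb Rpl9-ps7, Trim25 and Tarbp2.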

How the data were processed

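The authors deposited 1 table of raw counts, in whole numbers for each Ensembl gene. Per the submitters' processing notes, bcl2fastq 2.17, Bowtie2, HTSeq and the mm10 build were used, and per the labels' protocols the libraries came from 500 ng of RNA with a stranded KAPA kit. How strand was handled in counting, and with which annotation, is not stated in the notes or labels. Column totals were 3765291 to 5116467 counts. The labels do not tie the libraries to mice, so the spread between them may be technical. The members and gene lists were chosen with earlier results of these data known.

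Symbols, positions and exon overlaps came from GENCODE M21 on GRCm38, which lacked 147 identifiers. Columns were compared by chi-square over genes with at least 20 counts in the pair, with the gene Gm43333 left out, then summed by group. Ratios of summed counts used TMM-scaled library sizes and exact conditional binomial intervals. The additive model (strain label and sex) was fitted to the 4 summed samples with edgeR 4.0.16 under R 4.3.3 (filterByExpr, TMM, quasi-likelihood F test, Benjamini-Hochberg, threshold 0.05), with each SE taken as the absolute log2 change divided by the root of F. The common coefficient of variation was 9.78%. The fit was tested on simulated data. Alternatives were RLE, upper-quartile and restricted TMM factors, no filter, no minimum count, a 1.5-fold rule, summing opposite features, leaving out columns, DESeq2 1.42.0, limma-voom (limma 3.58.1), and fits to the 8 columns. Promoter windows came from RefSeq on GRCm38.p6. In each list, the members with the largest and smallest ratio were to be named, and for likeness the 3 nearest genes.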

Additional observations from a re-analysis of the deposited data

How the results depend on the processing

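No called value of the 10 factors changed direction. Of 952 values for single factors under alternatives 919 stayed within their limits, 14 moved, 10 became stronger and 9 weaker. Jun passed the strain label test in 19 of 19 alternatives (log2 change 0.87 to 1.01), Nr4a1 in 18 (0.87 to 0.96), Fosb in 17 (-0.90 to -0.65) and Fos in 13 (0.27 to 0.56). The edgeR adjusted p of Fosb was 0.0886 without replicate 1, and that of Fos was 0.0569 with no filter and 0.359 without replicate 2. DESeq2 on the 4 summed samples passed 1 factor in place of 4, and 1351 genes in place of 4572 overall. With the 8 columns as samples edgeR passed 7 factors, adding Egr1, Nr4a3 and Junb, beside 49.5% of all genes. In the sex test it passed 2 (Fosb and Junb) in place of none, beside 17.5% of all genes.

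The same columns as samples gave 6 factors for the strain label in males and 4 in females, beside 42.8% and 36% of all genes. For sex they gave 1 in TCR1640 and 1 in SJL/J, beside 16.2% and 11.3% of all genes. DESeq2 on the 8 columns gave 4, 2 and 1 for the strain label in males, in females and for sex in TCR1640. Summing opposite features put 2 factors apart in males, and a 1.5-fold rule put 3 apart in males, 3 in females and 1 between the sexes in SJL/J. Leaving out 1 library at a time gave 0 to 2 factors apart in females. No share of all genes is given for DESeq2 on the 8 columns, summed features, the 1.5-fold rule or left-out libraries. Their counts of factors are therefore not set against a background. The cause of these changes was not tested. Over all genes the sex test ranged from 6 (DESeq2) and 8 (without the second TCR1640 male library) to 2759 (8 columns) and 2875 (8 columns with the replicate block), against 190.

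Over all genes the replicate number did not pair the columns, since deviations of same-numbered columns correlated at -0.00872 to 0.0279. Egr1 and Nr4a2 were higher in the first column of all 4 groups, with each interval including equality. For Egr1 the log2 ratios were 0.24, 0.25, 0.27 and 0.24 in TCR1640 males, TCR1640 females, SJL/J males and SJL/J females. The other factors changed direction between groups. With the number as a replicate block, the 8-column fit gave 6 factors for the strain label in males and 4 in females, 1 for sex in each label, 7 for the strain label over both sexes and 2 for sex. Of 15793 genes fitted, it called 7857 for the strain label over both sexes and 2875 for sex over both labels. Its shares within a sex or a label are not given. Other scalings moved the median of all genes by under 0.04. Depth limits Egr2, Egr3 and Nr4a2 most, whose counting intervals were the widest.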
